A study of Danio rerio with 4 samples.

Results

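The lysosome genes of the cryoinjured zebrafish ventricle were compared between wild types and *cd74a; cd74b* mutants. A gene counted as a lysosome gene when the KEGG annotation listed with the values includes the pathway Lysosome. The 13 genes that are also annotated to Oxidative phosphorylation, all encoding parts of the proton pump V-ATPase or its accessory subunit, and both *ctss2* genes were left out by the selection rule. This left 111 of the 126 lysosome genes and of the 20984 genes in all, and 103 of them had a mean of 10 or more normalized counts across the 4 ventricles and were tested. The rule used annotation and gene names only, although it was set with earlier results of these data known.

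Bulk RNA-seq was performed on single ventricles of AB strain fish aged 3 to 12 months, 2 wild types and 2 *cd74a; cd74b* mutants, each cryoinjured, at 120 hours post-cryoinjury (hpci) by the study's text and at 7 days by the design text of the series. The mutants carry the CRISPR-Cas9 alleles *cd74a* bns454 and *cd74b* bns456, small deletions predicted to truncate both copies of the invariant chain that guides MHC class II molecules to endosomes. The alleles are present in every cell of the fish. Each genotype comprised 1 female and 1 male by the sample records, which do not tie a sex to a library, so sex cannot be told apart from the spread within a genotype, and no uninjured ventricle was compared here. Transcripts of both targeted genes were lower in mutants, *cd74b* with 622 and 678 normalized counts against 131 and 117 and *cd74a* with 837 and 913 against 408 and 401 (limma adjusted p-values 0.0037 and 0.010). Normalized counts, the reads of a gene divided by a size factor of the library and rounded, summed to between 4123819 and 4382529 per ventricle, from an estimated 4016600 to 4490460 reads counted on genes. Cardiomyocyte, endothelial, fibroblast, leukocyte and erythrocyte markers were all present, as in a whole ventricle. In such bulk tissue, fewer cells of a type and less RNA per cell cannot be told apart.

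The lysosome is the acidic compartment in which cells break down proteins, glycans, lipids and nucleic acids that arrive by endocytosis, phagocytosis or autophagy. Most of its hydrolases receive a mannose 6-phosphate tag in the Golgi, are bound there by mannose 6-phosphate receptors, and leave in clathrin-coated vesicles with the help of adaptor complexes. The invariant chain itself is cut by lysosomal proteases in antigen-presenting cells, and macrophages, which clear debris after cardiac injury, are rich in lysosomes. The roles given below are those established mainly for the mammalian proteins.

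Of the 103 tested lysosome genes, 9 were lower in mutants and 2 were higher. A gene was called when limma gave a Benjamini-Hochberg adjusted p-value under 0.05, adjusted over all tested genes, together with a log2 fold change (log2FC, mutant over wild type) of 0.59 or more in either direction. The lower genes were *igf2r*, *dnase2*, *ap3d1*, *gnsb*, *cltb*, *gga3b*, *ctsba*, *scarb2a* and *abca2*, and the higher genes were *slc11a2* and *lamp1b*. These shares, 8.74% lower and 1.94% higher, lay near those of all 16065 tested genes, of which 7.44% were lower and 2.70% were higher, so the number of calls does not set the lysosome genes apart. Among genes with a mean of at least 100, 8 of 89 lysosome genes were lower, against 5.12% of all such genes, and 2 were higher, against 3.33%. Of these 89, 44 had both mutants under both wild types and 15 had them above, against 23.2% and 37.0% of all such genes. The calls of the pathway also depended on all 4 ventricles. With any ventricle left out, limma called 0 genes in the whole table, whereas with all 4 ventricles 33 of 103 lysosome genes (32.0%) and 29.0% of all tested genes had an unadjusted p-value under 0.05. These shares were 16.8% of the lysosome genes and 20.1% of all genes without wild-type replicate 1, and 25.7% and 21.2% without wild-type replicate 2. They were 27.2% and 20.9% without mutant replicate 1, and 16.5% and 13.4% without mutant replicate 2.

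Small decreases were more common than calls. The median log2FC of the tested lysosome genes was -0.22, with the middle 50% between -0.50 and 0.07, whereas the median was 0.03 for all tested genes and 0.10 for tested genes with a mean of at least 100. Both mutants were under both wild types for 52 of the 103 genes (50.5%), compared with 29.4% of all tested genes, and above them for 17 genes (16.5%), compared with 30.5%. The 111 genes together took 1.03% and 0.980% of the summed normalized counts in wild types and 0.872% and 0.862% in mutants. Both mutants were thus below both wild types in the share that the pathway took of the library.

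**Figure D1:**
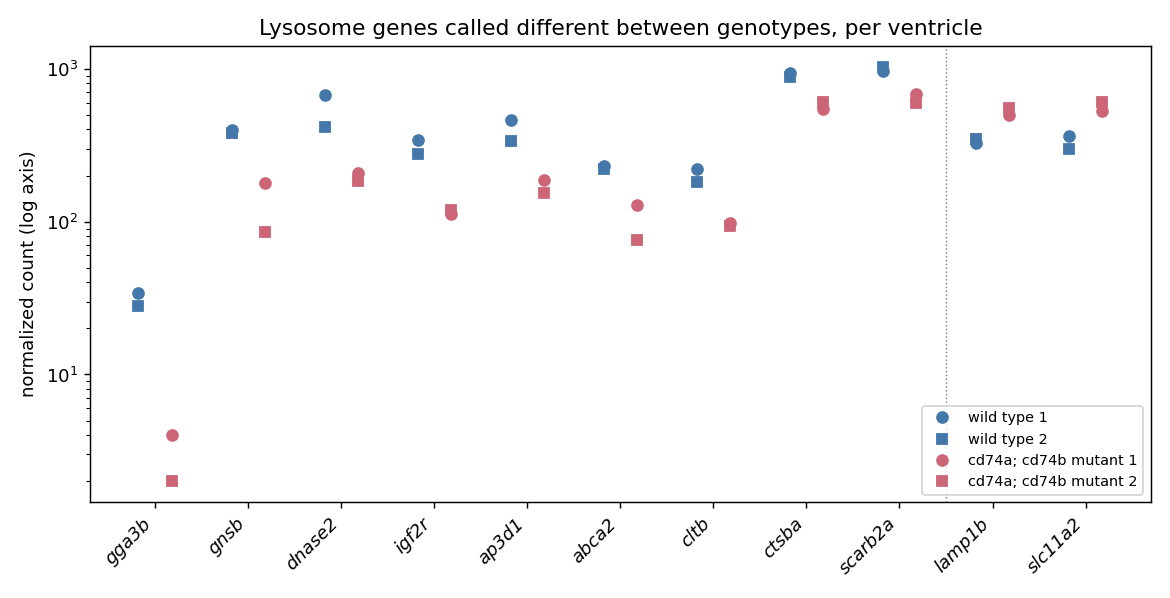
Normalized counts (log axis) of the 11 lysosome genes called different between genotypes, with a point for each of the 4 ventricles, ordered by log2FC. For the 9 genes left of the dotted line both mutants lie below both wild types, and for *lamp1b* and *slc11a2* they lie above them.

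The hydrolases of the lysosome, with the enzymes *hgsnat* and *sumf1* and the lipid transfer proteins, had negative log2FCs for 42 of 56 genes. Most of these 42 were not called. By limma 3 of the 56 were lower (5.36%) and 0 were higher, against 7.44% and 2.70% of all tested genes. The unadjusted limma p-value was under 0.05 for 16 with a negative and 2 with a positive log2FC, against 17.2% and 11.7% of all tested genes. Both mutants were under both wild types for 36 (64.3%), against 29.4% of all tested genes. The median log2FC of the 56 was -0.28. The 47 tested genes for sorting, for membrane proteins and of no assigned role had a median of -0.09, with 6 lower and 2 higher genes. The only tested gene of no assigned role, *zgc:153169*, had 91 and 103 against 88 and 71 (log2FC -0.29, limma adjusted p-value 0.49).

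Among the proteases, *ctsba*, which encodes the cysteine protease cathepsin B (chromosome 17, 32622931 to 32631514, danRer11), fell from 942 and 878 normalized counts in the wild types to 544 and 609 in mutants. The groups did not overlap, and the mutants had 63.4% of the wild-type mean, a log2FC of -0.66 (standard error, SE, 0.14, limma adjusted p-value 0.033). It was the 1 of 14 tested proteases that was called (7.14%), near the 7.44% of all tested genes called lower. Both mutants were under both wild types for 11 of the 14, against 29.4% of all tested genes. *ctsz*, encoding the carboxypeptidase cathepsin Z, had the smallest p-value among the genes not called, with 665 and 651 against 445 and 455. Its log2FC was -0.55 with a 95% confidence interval from -0.88 to -0.22 and an adjusted p-value of 0.0507, and its size was also under the limit of 0.59. *ctsc*, whose product cathepsin C activates granule serine proteases, had 1298 and 1047 against 850 and 828 (log2FC -0.47, SE 0.15, adjusted p-value 0.092). For *lgmn*, encoding the asparaginyl protease legumain, the values were 1310 and 1314 against 1005 and 1110, a log2FC of -0.31 that did not pass (adjusted p-value 0.18). *ctsd*, the gene of the aspartic protease cathepsin D, had 1084 and 1090 against 866 and 959 (log2FC -0.25, adjusted p-value 0.26), and *tpp1*, a tripeptidyl peptidase gene, 757 and 682 against 540 and 550 (log2FC -0.40, adjusted p-value 0.12). The exception in direction was *ctsf*, encoding cathepsin F, with 502 and 492 in wild types and 653 and 699 in mutants. Its log2FC of 0.44 did not pass either (SE 0.14, adjusted p-value 0.087). Of the lysosome genes on chromosome 14, *ctsf* lies nearest to the edited *cd74a*, at 4.09 Mb, and an effect of that linkage was not tested. The genes of cathepsin K and of a cathepsin L, *ctsk* and *ctsla*, overlapped between genotypes. *ctsla* had 944 and 1002 against 888 and 992, with an interval of the log2FC from -0.38 to 0.28. *ctss1*, a cathepsin S gene, had 8 and 13 against 5 and 3, and *ctsbb* between 1 and 11, and both were under the filter.

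The glycosidases and *hgsnat*, which break down the sugar chains of glycoproteins, glycolipids and glycosaminoglycans, had 0 called genes of 18 by limma, or 1 lower (*glb1*) with cyclic loess, with the libraries rescaled to the same total or upper quartile, or with a mean of at least 50, and 5 with an unadjusted p-value under 0.05, all with negative log2FCs. Both mutants were under both wild types for 12 of the 18 and above them for 0, against 29.4% and 30.5% of all tested genes. The median log2FC of the 18 was -0.34. The smallest p-value was that of *glb1*, the gene of lysosomal beta-galactosidase, with 235 and 240 in wild types and 143 and 152 in mutants (log2FC -0.68, SE 0.18, adjusted p-value 0.056). The sialidase gene *neu1* had 244 and 196 against 149 and 93, a log2FC of -0.89 with a SE of 0.27 (adjusted p-value 0.080). For the acid alpha-glucosidase gene listed as *si:ch73-12o23.1* and named *gaa2* in the gene name table, the values were 462 and 392 against 314 and 243 (log2FC -0.62, adjusted p-value 0.079). The glucocerebrosidase gene *gba* had 418 and 440 against 328 and 284, with a log2FC of -0.49 and an interval from -0.87 to -0.11 (adjusted p-value 0.095). *hexa* and *hexb*, for the subunits of beta-hexosaminidase, had 219 and 170 against 143 and 109, and 805 and 616 against 596 and 606 (log2FCs -0.62 and -0.23, adjusted p-values 0.13 and 0.41). *gusb*, with the second highest mean of the group, had 780 and 693 against 619 and 542 (log2FC -0.34, SE 0.15, adjusted p-value 0.18). At the other end, *man2b1*, a lysosomal alpha-mannosidase gene and the one with the highest mean in the group, had 803 and 706 against 758 and 735, and *idua*, encoding alpha-iduronidase, 199 and 195 against 202 and 198. The 95% confidence intervals of their log2FCs, -0.35 to 0.32 and -0.39 to 0.44, leave room for changes in either direction.

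The sulfatase group differed in direction from gene to gene, with a median log2FC of 0.13 that turned negative when mutant replicate 1 was left out (-0.17). *gnsb*, one of a pair of genes for N-acetylglucosamine-6-sulfatase, an enzyme of heparan and keratan sulfate breakdown (chromosome 10, 45031398 to 45047242), fell from 399 and 377 to 178 and 85. The mutants differed from each other here, and the log2FC was -1.65 (SE 0.33, adjusted p-value 0.025). Leaving out single ventricles moved it between -2.18 and -1.12. Its partner *gnsa* had 779 and 727 in wild types and 893 and 984 in mutants, a log2FC of 0.32 that did not pass (adjusted p-value 0.18). *arsa*, the gene of arylsulfatase A, had 106 and 71 against 51 and 31 (log2FC -1.11, SE 0.37, adjusted p-value 0.099). *sumf1*, whose product activates all sulfatases by converting a cysteine of their active site, lay in the opposite direction, with 141 and 160 against 208 and 265 (log2FC 0.64, SE 0.21, adjusted p-value 0.091).

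Of the acid phosphatases and DNases, *dnase2*, encoding the acid endonuclease with which phagocytes digest the DNA of engulfed cells (chromosome 16, 45337663 to 45357518), fell from 677 and 413 to 209 and 183. The wild types were far apart, but both exceeded both mutants, and the mutants had 36.0% of the wild-type mean. The log2FC was -1.43 (SE 0.25, adjusted p-value 0.018). *acp2*, an acid phosphatase gene, had 323 and 347 against 217 and 224 (log2FC -0.60, SE 0.16, adjusted p-value 0.060). *acp5a*, encoding a tartrate-resistant acid phosphatase of osteoclasts and macrophages, had 21 and 17 against 5 and 3, just above the filter with a mean of 11.5 (log2FC -2.02, SE 0.65, adjusted p-value 0.091). Its partner *acp5b*, with 7 and 13 against 2 and 4, was not tested. All 4 tested genes of the group had both mutants below both wild types, against 29.4% of all tested genes. The normalized counts of the group summed to 1096 and 835 in wild types and to 470 and 450 in mutants. The mutants had 47.6% of the wild-type mean, the lowest share among the role groups. A large part of each sum came from *dnase2*, with 677 and 413 against 209 and 183.

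Genes for the breakdown and transfer of lipids had 0 calls of 12 by limma and by its precision-weight variant voom, and 2 with an unadjusted p-value under 0.05, *asah1a* and *gm2a*. *psap*, the precursor of the saposins that lift sphingolipids from membranes, had the highest mean of the group and overlapped between genotypes, with 1579 and 1530 against 1448 and 1595. The cholesterol export genes *npc1* and *npc2* had 1068 and 833 against 784 and 793, and 373 and 418 against 319 and 362. Their log2FCs were -0.26 and -0.22 (adjusted p-values 0.33 and 0.42). *asah1a*, an acid ceramidase gene, had 152 and 168 against 113 and 78 (log2FC -0.76, SE 0.25, adjusted p-value 0.099). The group also held genes in the opposite direction, of which *pla2g15*, a lysosomal phospholipase gene, had 397 and 358 against 447 and 469 (log2FC 0.28, adjusted p-value 0.27). Among the tested lysosome genes that KEGG also lists in Sphingolipid metabolism, which cut across these groups, both mutants were under both wild types for 9 of 10, against 29.4% of all tested genes. The median log2FC of the 10 was -0.50, with 0 calls, and was the lowest among the other KEGG terms compared. It was -0.49 for Other glycan degradation (8 of 9 under), -0.19 for Glycosaminoglycan degradation (6 of 12) and -0.10 for genes with no other term (19 of 49).

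**Figure D2:**
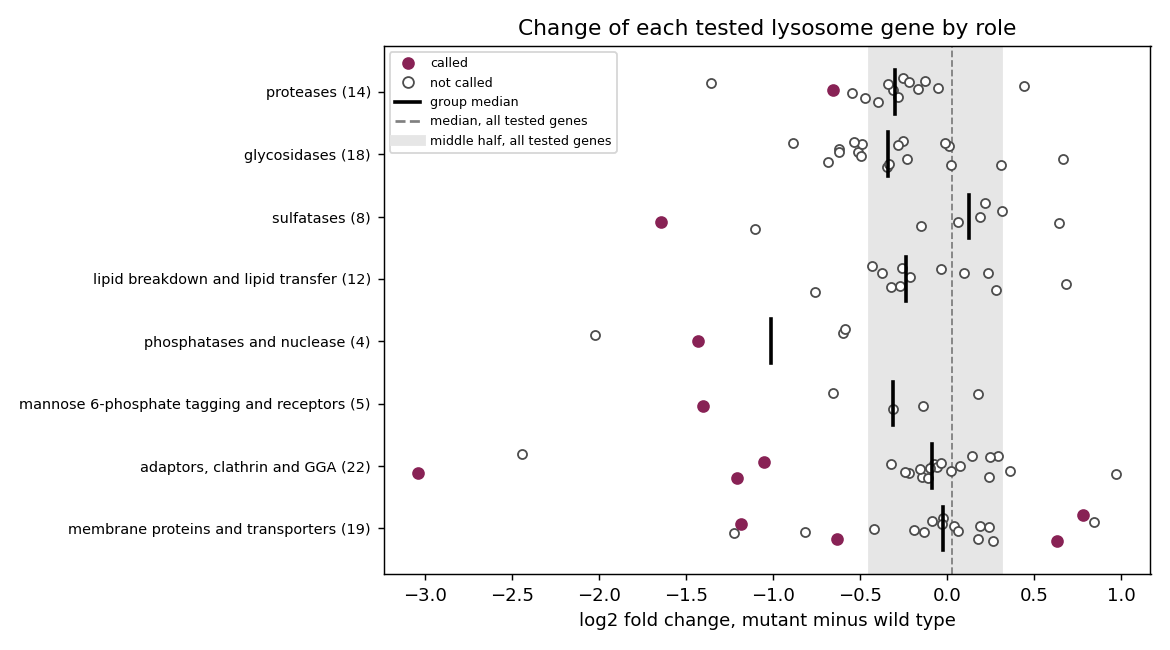
Log2FC (mutant minus wild type) of each tested lysosome gene by role, with filled points for called genes, a black bar for the median of a group, a dashed line for the median of all tested genes (0.03) and a gray band for their middle 50%. The medians lie left of the dashed line in all groups except the sulfatases (0.13), and the membrane proteins (-0.02) lie closest to it.

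Sorting of the hydrolases starts with the mannose 6-phosphate tag. *igf2r*, encoding the large, cation-independent mannose 6-phosphate receptor (chromosome 20, 42563618 to 42660656), had the smallest p-value of all lysosome genes. It fell from 342 and 275 to 112 and 119, with 37.4% of the wild-type mean left, a log2FC of -1.40 (SE 0.20, adjusted p-value 0.012). Of the called lysosome genes, it was the one whose call was lost under the fewest alternatives, namely without a filter and with single ventricles left out. *m6pr*, encoding the small, cation-dependent receptor, had 435 and 414 against 320 and 366 (log2FC -0.31, SE 0.16, adjusted p-value 0.24). Within each library, which removes the size factor, the ratio of *igf2r* to *m6pr* was 0.786 and 0.664 in wild types and 0.35 and 0.325 in mutants. This pair was chosen after its values were seen. The tag itself is added by the product of *gnptab* with the help of *gnptg* and is uncovered by that of *nagpa*. *gnptab* overlapped between genotypes, with 590 and 436 against 430 and 492, *gnptg* had 172 and 165 against 177 and 205, and *nagpa* had 170 and 146 against 109 and 91 (log2FC -0.66, SE 0.23, adjusted p-value 0.11).

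Clathrin, its adaptors and the GGA proteins, which gather cargo into vesicles, had 3 lower and 0 higher genes of 22 tested. Of all tested genes, 7.44% were lower and 2.70% higher. Both mutants were under both wild types for 7 of the 22 (31.8%), against 29.4% of all tested genes, and above them for 2 (9.09%), against 30.5%. The other 13 overlapped between genotypes. *ap3d1*, encoding the delta subunit of AP-3, the adaptor complex that carries membrane proteins to lysosomes and related granules (chromosome 22, 22172272 to 22231720), fell from 459 and 338 to 188 and 153. Its log2FC was -1.21 (SE 0.21, adjusted p-value 0.019). The tested genes of its medium and small subunits overlapped between genotypes. *ap3m1* had 258 and 352 against 284 and 279, *ap3m2* 210 and 145 against 161 and 155, and *ap3s2* 196 and 202 against 201 and 241. *cltb*, a clathrin light chain gene (chromosome 14, 51023954 to 51039702), fell from 219 and 181 to 98 and 93. Its log2FC was -1.05 (SE 0.21, adjusted p-value 0.027). It lies 48.0 Mb from the edited *cd74a*, and of the 8 lysosome genes on that chromosome it was the only one called. No lysosome gene lies on chromosome 21 with *cd74b*. The heavy chain genes *cltca* and *cltcb* had the highest normalized counts of the adaptor group. They had 2240 and 1833 against 1751 and 1737, and 1398 and 1056 against 1004 and 1052, with log2FCs of -0.22 and -0.24 that did not pass (adjusted p-values 0.37 and 0.38). *gga3b*, encoding a GGA adaptor that binds mannose 6-phosphate receptors (chromosome 3, 6490520 to 6519760), fell from 34 and 28 to 4 and 2, the largest change of any tested lysosome gene. The log2FC was -3.04 on the log2(normalized count + 1) scale (SE 0.63, adjusted p-value 0.029). The mean of *gga3b*, 17, passed the filter only through the wild types, with a mean of 31 against 3 in mutants. Its rank and call therefore depend on that filter, and with a filter on a mean of at least 50 it was not tested. *ap1m3*, an AP-1 medium subunit gene with the lowest mean among the tested lysosome genes, 10.25, had 20 and 16 against 3 and 2 and did not pass (log2FC -2.45, SE 0.71, adjusted p-value 0.068). *ap4e1*, of the AP-4 complex, lay in the other direction, with 195 and 118 against 262 and 339 (log2FC 0.97, SE 0.27, adjusted p-value 0.065).

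Both higher genes encode proteins of the lysosomal or endosomal membrane. *slc11a2*, a proton-coupled transporter of ferrous iron known as DMT1 in mammals (chromosome 11, 281833 to 287670), rose from 360 and 300 to 528 and 605. The mutants had 172% of the wild-type mean, a log2FC of 0.78 (SE 0.17, adjusted p-value 0.032). The call of *slc11a2* was lost in 8 of 17 alternatives, among them limma without the trend and a replicate block. *lamp1b*, encoding a heavily glycosylated protein that lines the lysosomal membrane (chromosome 9, 34380299 to 34389875), rose from 328 and 346 to 498 and 550. Its log2FC was 0.63 (SE 0.15, adjusted p-value 0.042), and the call was lost in 10 of 17 alternatives. Among these were no filter on low values, limma without the trend, a replicate block and a fold limit of 1. The libraries rescaled to the same upper quartile or normalized by cyclic loess lost it too, since the change then fell to 0.57 or 0.52. *scarb2a*, encoding another major protein of that membrane, the receptor that carries glucocerebrosidase to lysosomes in mammals (chromosome 5, 52844681 to 52862805), fell from 960 and 1030 to 685 and 600. Its log2FC was -0.63 (SE 0.14, adjusted p-value 0.037). *abca2*, a lipid transporter gene of endosomes and lysosomes (chromosome 5, 25088622 to 25236340), fell from 230 and 221 to 128 and 76 (log2FC -1.18, SE 0.28, adjusted p-value 0.039). *abcb9*, a peptide transporter gene, had 61 and 55 against 118 and 93 and did not pass (log2FC 0.84, SE 0.27, adjusted p-value 0.089). Genes of other membrane proteins of late endosomes and lysosomes did not pass. *cd63* had 752 and 773 against 744 and 826, with an interval of its log2FC from -0.29 to 0.37, *cd164* had 1013 and 1022 against 1115 and 1190, and *si:ch211-212k18.7*, named *cd68* in the gene name table, had 715 and 645 against 542 and 654. Both mutants were also under both wild types for *slc17a5*, the gene of the lysosomal sialic acid exporter, with 175 and 142 against 112 and 71 (log2FC -0.81, SE 0.28, adjusted p-value 0.11). The calcium channel gene *mcoln1b* was listed at 9 and 13 in wild types and at 0 in both mutants, with a mean of 5.5 that kept it out of the test. The members nearest to the filter on the other side of it were *ap1m3* and *acp5a*, given above, and *zgc:77118*, with 14 and 6 against 16 and 15. The other members under the filter were *AP3B2*, *si:ch211-38m6.6*, *CABZ01045212.1* and *si:dkey-192p21.6*, none with more than 10 normalized counts in any ventricle.

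Several lysosome genes come in pairs whose names differ only in a final a or b, and 9 such pairs had both genes tested. Their ratio within a library does not depend on its size factor, although the ratio is not one of transcript numbers, since gene lengths were not used. The ratio of *gnsa* to *gnsb* was 1.95 and 1.93 in wild types and 5.02 and 11.6 in mutants. That of *gga3a* to *gga3b* was 5.59 and 5.21 against 33.2 and 84, as *gga3a* overlapped between genotypes with 190 and 146 against 133 and 168. The light chain ratio of *clta* to *cltb* was 2.46 and 2.83 against 4.39 and 5.92. For *galca* and *galcb*, both galactocerebrosidase genes, the ratio stayed between 1.13 and 1.19 in all 4 ventricles, while both genes had both mutants under both wild types, 271 and 180 against 173 and 138, and 228 and 159 against 153 and 119, without passing (adjusted p-values 0.23 and 0.24). The heavy chain ratio of *cltca* to *cltcb* was between 1.60 and 1.74 in all ventricles. An exact permutation test of such a ratio over 2 against 2 ventricles could reach 0.33 at the lowest (two-sided), so no test is given. Reads that aligned to both genes of a pair were not counted, so that genes with a close copy may be undercounted.

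**Figure D3:**
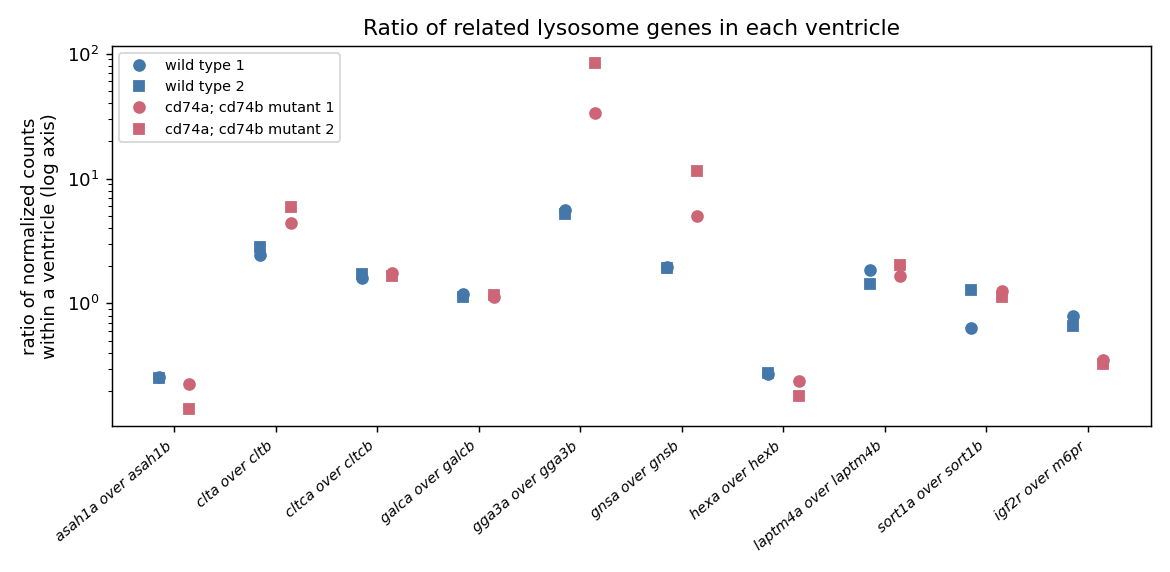
Ratio of normalized counts (log axis) within each of the 4 ventricles for the 9 pairs of lysosome genes named a and b and for *igf2r* over *m6pr*. The wild types and mutants are far apart for *gga3a* over *gga3b* (5.59 and 5.21 against 33.2 and 84) and for *gnsa* over *gnsb*. They are closer but do not overlap for *clta* over *cltb*, *asah1a* over *asah1b*, *hexa* over *hexb* and *igf2r* over *m6pr*. They overlap for *galca* over *galcb*, *cltca* over *cltcb*, *laptm4a* over *laptm4b* and *sort1a* over *sort1b*.

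Markers of other cells moved between the genotypes as well. Of the 12 macrophage markers other than *cd74a* and *cd74b*, 5 were lower and 0 higher, against 7.44% and 2.70% of all tested genes. The lower markers were *mpeg1.1*, *mpeg1.2*, *mfap4*, *csf1ra* and *csf1rb*. Both mutants were under both wild types for all 12, against 29.4% of all tested genes. The 12 markers had summed normalized counts of 6895 and 6293 in wild types and 4404 and 4379 in mutants. *csf1ra* lies near the edited *cd74a* on chromosome 14 (3143337 to 3180947 and 3038473 to 3052361), and an effect of that linkage was not tested. The pan-leukocyte markers summed to 5130 and 4404 against 3295 and 3478, with 1 of 7 lower (*rac2*). The neutrophil markers summed to 1944 and 1600 against 1377 and 1425, with 2 of 6 tested lower. The mutants thus had 66.6%, 71.0% and 79.1% of the wild-type mean in these lists, and 88.1% in the lysosome genes, 82.7% in the proteases and 80.3% in the glycosidases. The other role groups ranged from 47.6% (phosphatases and nuclease) to 100.9% (membrane proteins), with 100.2% in the sulfatases and 91.0% in the adaptor group. Cardiomyocyte markers summed to 85.7% of the wild-type mean, but 7 of the 12 had positive log2FCs, with a median of 0.09, and without *myh6* (1352 and 3908 against 1250 and 154) and *ttn.2* (5681 and 5793 against 3659 and 4094) the other 10 summed to 107%. Endothelial and endocardial markers summed to 90.3%, with *vwf* lower and *pecam1* higher, and to 100.8% without *vwf*. These genes were set aside after their values were seen. Apart from the targeted *cd74a* and *cd74b*, with which the macrophage sum was 60.6%, no gene was set aside from the leukocyte lists. The reduced sums are therefore not comparable with theirs. The lower neutrophil sum came largely from *mpx* (266 and 155 against 74 and 63) and *csf3r* (172 and 80 against 19 and 2). Of the other tested neutrophil markers, *mmp9* and *cebpa* overlapped between genotypes, and both mutants were under both wild types for *ncf1* and *nccrp1*. Fibroblast and epicardial markers summed to 103%. Erythrocyte markers summed to 2903 and 5548 in wild types and to 2281 and 2389 in mutants. The mutants had 55.3% of the wild-type mean, the lowest share of the marker lists. All 7 had negative log2FCs, against 47.8% of all tested genes, and 1 was called lower, a gene listed as *hbba1*. The wild types differed from each other in this sum by more than the mutants did. The part of these cell types in the values of the lysosome genes was not tested.

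**Figure D4:**
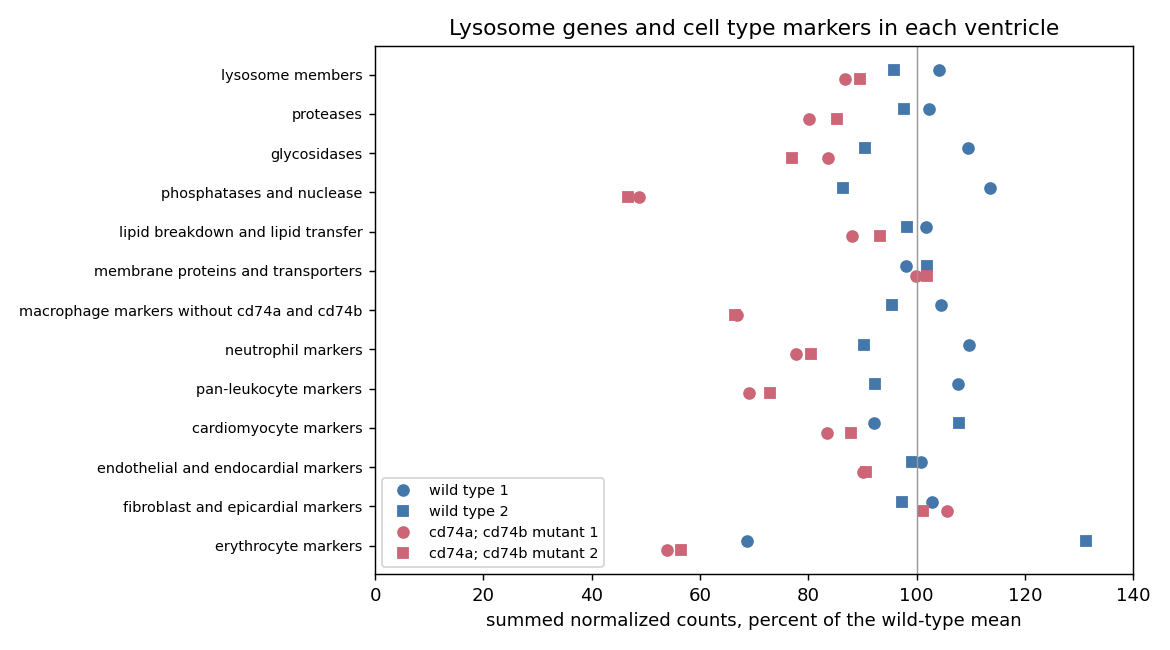
Summed normalized counts of the lysosome genes, of 5 of their role groups and of 7 marker lists in each ventricle, as a percentage of the wild-type mean. Both mutants lie below both wild types for the lysosome genes (86.7% and 89.6%), and further below for the macrophage markers without the targeted genes (66.8% and 66.4%), while the lysosomal membrane proteins overlap. The sulfatases and the adaptor group, not drawn, overlap as well, with 100.2% and 91.0% of the wild-type mean in mutants.

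Genes that regulate the lysosome or act with it were examined in the same fit. Transcription factors of the MiT family switch on lysosome genes in mammals. Of the 6 tested, 3 were lower, against 7.44% of all tested genes. *tfe3b* fell from 84 and 106 to 5 and 1, *tfe3a* from 40 and 59 to 3 and 3, and *mitfb* from 24 and 35 to 5 and 2. Their log2FCs were -4.78, -3.63 and -2.82 (SEs 0.64, 0.56 and 0.66, limma adjusted p-values 0.011, 0.014 and 0.040). The other 3 did not pass. *tfeb* had 581 and 401 in wild types and 542 and 762 in mutants (log2FC 0.41, adjusted p-value 0.29), *tfec* had 114 and 88 against 76 and 64, and *mitfa*, which is best known from pigment cells, 17 and 7 against 7 and 13. The called factors had low means of 49, 26.25 and 16.5, whereas *tfeb* had 571.5. These 3 passed the filter only through the wild types, as their means in mutants were 3, 3 and 3.5. The share called lower also changes with the mean, being 5.12% of all genes with a mean of at least 100. The 7.44% is thus not matched to genes this low, and the 3 of 6 is a description only. All 6 summed to 860 and 696 in wild types and to 638 and 845 in mutants. The genotypes overlapped in this sum, and the mutants had 95.3% of the wild-type mean. With cyclic loess, a pseudocount of 0.1, limma without the trend or a replicate block, 2 of the 6 were called. Without a filter 0 of 6 were called, and a filter on a mean of at least 50 removed all 3 called factors from the test.

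On the lysosomal surface, mTORC1 and the Rag GTPases sense nutrients with the help of Ragulator. Of 22 tested genes of this group 1 was lower, *lamtor1*, which encodes the subunit that anchors Ragulator to the membrane and fell from 107 and 106 to 45 and 40 (log2FC -1.31, SE 0.27, adjusted p-value 0.029). The median of the group was 0.14, and 4.55% of it was lower, against 7.44% of all tested genes. Of 34 autophagy genes, 1 was lower and 2 were higher (2.94% and 5.88%), against 7.44% and 2.70% of all tested genes. Both mutants were above both wild types for 16 of the 34 (47.1%), against 30.5% of all tested genes and 37.0% of those with a mean of at least 100. The median log2FC of the 34 was 0.15, against 0.10 for tested genes with a mean of at least 100. *ulk2*, a kinase gene of autophagy initiation, rose from 555 and 531 to 969 and 1122 (log2FC 0.94, adjusted p-value 0.014), and *map1lc3cl*, of the LC3 family that coats autophagosomes, from 22 and 12 to 100 and 135 (log2FC 2.76, adjusted p-value 0.013). *ulk1b*, a related kinase gene, fell from 97 and 287 to 16 and 11, with the wild types far apart (log2FC -3.56, SE 0.53, adjusted p-value 0.013). Of 20 genes for the tethering and fusion of late endosomes, 2 were lower, against 7.44% of all tested genes. *vps39*, a subunit gene of the HOPS tethering complex, fell from 591 and 625 to 416 and 347 (log2FC -0.68, adjusted p-value 0.040), and *rilp*, an effector of Rab7, from 104 and 126 to 53 and 26 (log2FC -1.60, adjusted p-value 0.043).

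**Figure D5:**
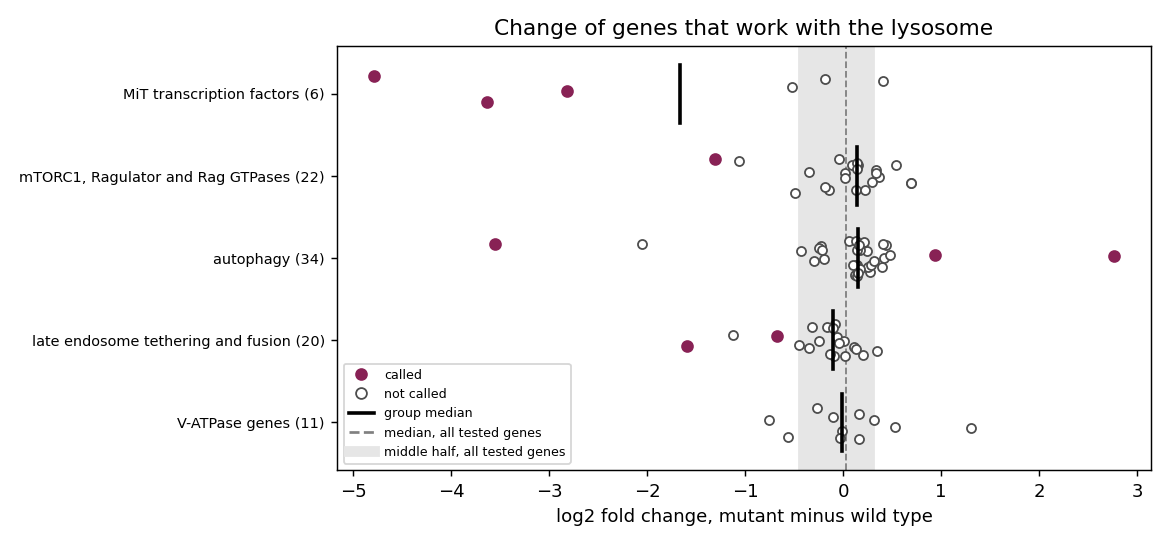
Log2FC (mutant minus wild type) of each tested gene of 4 groups that act with the lysosome and of the 11 tested V-ATPase genes among those left out by the rule. Filled points mark called genes, a black bar the group median, and a dashed line and gray band the median and middle 50% of all tested genes. The MiT factors *tfe3b*, *tfe3a* and *mitfb* lie far to the left (-4.78, -3.63 and -2.82), and the medians of the other groups lie between -0.10 and 0.15.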

How the data were processed

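The authors trimmed reads with Trimmomatic 0.39, used STAR 2.7.9a for alignment to danRer11 with Ensembl release 104 annotation, and featureCounts 2.0.2 for exon counts, in which multi-mapping reads and reads shared by genes were discarded. The values the authors deposited are a score per gene and library, a count scaled by a DESeq2 (1.30.0) size factor and then rounded. The strand setting of the counting is not given in the sources used here. Since these values were rounded after scaling, a count test as in the study's methods was not run. Reads per library were estimated from the gaps and pile-ups that rounding leaves among low values.

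The 16065 genes with a mean of at least 10 were compared with limma 3.58.1 in R 4.3.3 (linear model, empirical Bayes with mean-variance trend) on log2(normalized count + 1), which understates changes of low genes, with the thresholds of the study's methods. Standard errors and 95% intervals share variance information across genes. The code of the test was also run on simulated counts with an assumed spread, which does not check the calls made in these data. The records call the ventricles biological replicates, 2 per genotype, so p-values measure the spread between these fish. By the study's methods, wild-type siblings and mutant siblings were each crossed with fish heterozygous for both alleles. Wild-type and mutant progeny of these crosses were used, so genotype and parentage cannot be told apart here. Same-numbered ventricles come from different animals, and their deviations from the group means correlated at -0.066 across genes, so no block was used.

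The members, role groups and lists were chosen with earlier results of these data known, and 13 members were assigned a role from their names after the values were available. Named genes are the called members, the 2 of highest mean in each role group, the 6 of smallest p-value in each direction among those not called, the 3 nearest the filter on each side, the targeted genes and the called genes of the other lists, and further members are given as examples chosen after their values were seen. Gene names followed the deposited annotation, and 110 of 111 members had a symbol in the gene name table. Sequences and promoter motifs were not analysed here. Alternatives tried were other pseudocounts, filters, fold limits and scalings, limma without the trend, voom weights, a replicate block, all KEGG lysosome genes and leaving out each ventricle.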

Additional observations from a re-analysis of the deposited data

How the results depend on the processing

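The median log2FC of the lysosome genes stayed negative in every alternative run, between -0.28 (same upper quartile) and -0.19 (mean of at least 50) with all ventricles and between -0.25 and -0.14 with single ventricles left out. Lower and higher calls, 9 and 2 with the settings of the report, were counted anew under each alternative. Without a filter on low values there were 0 and 0 (smallest adjusted p-value of a member 0.058, 36 of 111 with an unadjusted p-value under 0.05), and with limma without the trend 4 and 0. Of the 9 lower genes, *igf2r* and *gga3b* kept their call there and 7 lost it, and *ap1m3* and *acp5a* gained one (adjusted p-values 0.032 and 0.046). With each library rescaled to the same upper quartile 1 was higher, as with cyclic loess (1), and with a fold limit of 1 on the log2 scale 0 were higher. With the replicate number as a block, 5 were lower and 0 higher. The numbers mark different fish, so a call lost under the block is not a weaker effect. With single ventricles left out, both counts ranged from 0 to 0. There the lone ventricle of a genotype is assumed to vary like the others, and limma called no gene of the whole table (smallest adjusted p-value 0.12). Cyclic loess and the same upper quartile raised the lower count to 13 and 12, with all 9 kept and calls gained by *acp2*, *ctsz* and *glb1* in both and by *ctsc* with cyclic loess. With a mean of at least 50, *glb1* gained a call and *gga3b* was not tested. Of 621 values of the 40 named members under the alternatives, 529 kept direction and side of the threshold, 76 lost a call, 12 gained one and 4 changed sign, all of uncalled genes near 0. With single ventricles left out, *man2b1* ranged from -0.11 to 0.080, *gnptab* from -0.36 to 0.077 and *psap* from -0.10 to 0.037. The cause was not tested. Genes with a mean under 10, at 4016600 to 4490460 estimated reads per library, were left out of the comparison, and without that filter no gene of the table was called.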

Other observations

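The lysosome genes left out by the selection rule had no call by limma. The V-ATPase pumps protons into the lysosome. Only the 13 of its genes annotated to both Lysosome and Oxidative phosphorylation were looked at here. Their summed normalized counts were 4533 and 4104 against 3942 and 4649 in mutants, so the groups overlapped. Of the 11 tested, 0 were called, 3 had an unadjusted p-value under 0.05, and the median log2FC was -0.01. Within this set the values lay in both directions. *tcirg1b*, an a subunit gene, had 800 and 618 against 436 and 522 (log2FC -0.56, SE 0.18, limma adjusted p-value 0.093), and *atp6v0cb*, a proteolipid subunit gene, had 274 and 306 against 378 and 461 (log2FC 0.53, SE 0.17, limma adjusted p-value 0.096). With cyclic loess or the same upper quartile, 1 of the 11 was called lower.

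The cathepsin S genes *ctss2.1* and *ctss2.2* had 646 and 710 against 445 and 481, and 320 and 304 against 224 and 233. Both mutants were under both wild types for each gene, with log2FCs of -0.55 and -0.45 that did not pass (limma adjusted p-values 0.057 and 0.12), and 1 of the 2 was called lower with cyclic loess or with the same upper quartile.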
